A study of Mus musculus with 20 samples.

Results

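The results concern 10 genes of the Wnt pathway in tumor cells sorted from bone metastases of mouse prostate cancer, out of 17104 genes listed in the deposited tables. They are the receptors and coreceptors Fzd4 and Lrp6, the Wnt inhibitor Apcdd1, the feedback genes Axin2, Nkd1, Rnf43 and Znrf3, the stem cell receptor Lgr5, and the transcription factors Lef1 and Tcf7. Fzd4 and Apcdd1 were chosen by their measured difference between enzalutamide-resistant and naive tumors, which is therefore given as values with no test. The same holds for each comparison that uses libraries that entered this choice, so that Apcdd1 is tested in 1 comparison and Fzd4 in none. Since earlier results of these data were known at the choice, that 1 test is not independent of it. The other 8 genes were taken for their known place in Wnt feedback, to ask whether the transcripts that Wnt signaling drives stood higher or lower in resistant tumors.

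The cells were MycCaP-Bo, a bone-homing subline of the Myc-driven mouse prostate cancer line MycCaP that carries an infrared fluorescent protein (iRFP) and luciferase. They were injected into the heart of FVB/N mice aged 4 to 6 weeks at day -7, and every library holds CD45- iRFP+ cells pooled from 3 mice, so that all groups rest on 1 cell line. Naive tumors received vehicle, and Resist tumors received enzalutamide, a hormone therapy of prostate cancer, at 30 mg/kg daily for 18 d. Resist-Mac tumors had the same enzalutamide course with clodronate liposomes, which deplete macrophages, at 1 mg per mouse in the last 4 d, and Naive-Mac tumors were enzalutamide-naive tumors depleted of macrophages with the same liposomes. Each group has 5 libraries. Naive and Resist libraries belong to batch 1, Resist-Mac libraries to batch 2 and Naive-Mac libraries to batch 3, so wherever a depleted group is compared, its batch and its treatment cannot be told apart. Nothing states that the pools were separate experiments, and p-values measure the spread between these libraries. Column names of the depleted groups carry number tags whose meaning is not stated: Resist-Mac replicates 2 and 3 share one tag, Resist-Mac replicates 4 and 5 share another, and so do Naive-Mac replicates 1 and 4.

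In canonical Wnt signaling, a Wnt ligand binds a Frizzled receptor together with the coreceptor Lrp5 or Lrp6, and beta-catenin then accumulates and works with TCF/LEF factors in the nucleus. Axin2, Nkd1, Rnf43, Znrf3, Apcdd1 and Lgr5 are among the genes commonly switched on by this signal, and many of them damp it: Axin2 helps to destroy beta-catenin, Nkd1 binds Dishevelled, Rnf43 and Znrf3 remove Frizzled from the cell surface, and Apcdd1 is a membrane protein that binds Wnt and Lrp proteins. R-spondins bound to Lgr receptors withdraw Rnf43 and Znrf3 and so raise the signal. Fzd4 is the receptor of Norrin as well as of Wnt ligands and is best known from blood vessels.

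Promoter sequences were read from RefSeq for 6 of the 10 genes, as 11 windows of the 250 bases before a transcript start (GRCm38.p6). The TCF/LEF motif was searched on both strands in these forms: CTTTGAA and also CTTTGAT, besides CTTTGTA and lastly CTTTGTT. It was in 1 of the 11 windows, a Lef1 window, and in 14.8% of all 32851 windows of that length. The windows of Fzd4, whose transcript differed between the groups, of Axin2, the most used readout of Wnt signaling, and of Lef1 are shown, with the motif in capitals. They lie on the plus strand at chr7:89404116-89404365, chr11:108920099-108920348 and chr3:131156044-131156293.
Fzd4: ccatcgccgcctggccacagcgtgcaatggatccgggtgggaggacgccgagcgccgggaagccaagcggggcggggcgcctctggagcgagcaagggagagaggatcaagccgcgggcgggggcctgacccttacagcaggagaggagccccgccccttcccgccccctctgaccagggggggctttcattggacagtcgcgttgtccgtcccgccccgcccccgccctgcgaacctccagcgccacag
Axin2: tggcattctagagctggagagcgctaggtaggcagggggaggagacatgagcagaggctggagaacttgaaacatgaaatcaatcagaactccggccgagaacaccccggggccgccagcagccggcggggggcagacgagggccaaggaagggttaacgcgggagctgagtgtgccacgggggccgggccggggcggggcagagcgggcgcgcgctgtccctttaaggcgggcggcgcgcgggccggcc
Lef1: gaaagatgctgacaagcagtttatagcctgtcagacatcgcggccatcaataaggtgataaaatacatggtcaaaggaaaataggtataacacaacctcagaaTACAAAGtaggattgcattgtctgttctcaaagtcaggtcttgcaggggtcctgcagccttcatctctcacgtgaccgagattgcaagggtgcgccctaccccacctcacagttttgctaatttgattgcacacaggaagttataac
The Fzd4 and Axin2 windows were 72.8% and 69.2% G and C, against 44.8% in this Lef1 window and a median of 52.4% over all windows. A match is only a match of letters, and none in a window says nothing of sites elsewhere.

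Expression was deposited as FPKM (fragments mapped to a transcript, scaled to its length and to the size of the library), so that levels can be compared between genes. Each Naive or Resist library had 13062 to 14056 genes above 0, and each library of the depleted groups 12087 to 13053. Read counts are not in the tables used here, so depth is unknown. The identity of the cells was checked on fixed marker lists. Foxa1 was at 83.3 FPKM or more in every Naive and Resist library and Krt8 at 101 or more, while Krt18, which pairs with Krt8 in luminal cells, was at 0 to 0.23 FPKM in all 20 libraries. Other epithelial markers were also near 0 in Naive and Resist, with Cdh1 at 0 to 0.06 FPKM and Tmprss2 listed at 0 except for 0.05 in 1 Resist library, and Epcam is not listed there. A value near 0 can also be a failed estimate: Rpl3, a ribosomal protein gene that cells need, was listed at 0.78 to 2.08 FPKM in Naive and Resist libraries and at 1414 to 3292 in the depleted groups. Genes at 0 are therefore called listed at 0 and not absent.

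Markers of other cells were summed per library. The 12 endothelial markers, of which 0 passed the filter for testing, summed to 1.42 to 3.18 FPKM in Naive, 1.06 to 7.01 in Resist, 1.10 to 7.39 in Resist-Mac and 0.53 to 1.73 in Naive-Mac libraries. Their defining genes were low but stood higher on average in Resist than in Naive: Pecam1 averaged 0.316 FPKM in Naive and 0.680 in Resist, Cdh5 0.290 and 0.554, and Kdr 0.098 and 0.178. The 12 osteoblast and stromal markers summed to 12.1 to 18.4 FPKM in Naive, 12.4 to 37.0 in Resist, 6.31 to 16.0 in Resist-Mac and 1.83 to 3.86 in Naive-Mac libraries. The 10 neutrophil markers had a median sum of 456 FPKM in Naive, 223 in Resist, 2465 in Resist-Mac and 3864 in Naive-Mac libraries. The 10 macrophage markers had median sums of 32.8, 21.4, 199.7 and 249.3 FPKM in the same order. Nearly all of the sum in the depleted groups was Lyz2. It was at 189.2 FPKM in Resist-Mac replicate 4 and at 244.8 in Naive-Mac replicate 1, the libraries at the median. Adgre1 was at 0 to 0.52 FPKM and Mrc1 at 0 to 0.22 in all 20 libraries, both highest in Resist-Mac. Other markers of the list also ran higher in some Resist-Mac libraries, with overlap. Csf1r was at 0.09 to 2.10 FPKM in Resist-Mac and 0.05 to 0.74 in Resist, and Itgam at 0.43 to 10.97 and 0.11 to 2.45. C1qa went the other way, at 0 to 0.36 FPKM in Resist-Mac and 0.15 to 0.94 in Resist. The sums, being nearly all Lyz2 in the depleted groups, say little of macrophage content. The 9 listed T cell markers summed to 21.7 to 30.2 FPKM in Naive and 8.81 to 13.7 in Resist. Nearly all of that sum was Cd5, at 24.9 ± 3.62 (SD, n = 5) in Naive and 11.4 ± 1.95 (SD, n = 5) in Resist, while Cd3e was listed at 0 in every Resist library and Cd3g in every Naive library. What part any of these cells have in the results was not tested.

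In Resist vs. Naive, Fzd4 was higher and Apcdd1 was lower in the resistant tumors, while the coreceptor Lrp6 and the feedback gene Znrf3 stood at nearly the same level and the classical feedback readouts Axin2, Lgr5 and Nkd1 were at or near 0 in both groups. Lef1, Tcf7 and Rnf43 were also low in both. Of the 4 members that reached a mean of 1 FPKM, 2 had been selected on this contrast, and neither of the other 2 was called. As background, the calls among all 10119 genes were 5.25% higher and 1.11% lower in Resist, and 12.8% had no overlap between Resist and Naive libraries.

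Fzd4, a Frizzled receptor, was at 1.70, 2.53, 1.83, 1.55 and 1.80 FPKM in Naive replicates 1 to 5 and at 4.90, 7.28, 6.06, 8.47 and 3.94 FPKM in Resist replicates 1 to 5. Every Resist library was above every Naive library. The mean was 1.88 ± 0.378 FPKM (SD, n = 5) in Naive and 6.13 ± 1.81 (SD, n = 5) in Resist, a ratio of 3.26, or 1.28 as a log2 change of FPKM + 1. Over the other ways of processing the data this log2 change ran from 1.13 to 1.62. Endothelial cells are known to express Fzd4, and the summed endothelial markers went the same way, with a median of 2.48 FPKM in Naive and 5.28 in Resist. Single libraries did not all follow this: Resist replicate 2, with Fzd4 at 7.28 FPKM, had the lowest endothelial sum of both groups, at 1.06 FPKM. The part of endothelial cells in the result was not tested. In such pooled cells, fewer cells with a transcript and less of it per cell cannot be told apart.

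Apcdd1, the membrane inhibitor of Wnt, was at 15.6, 30.6, 15.0, 26.3 and 43.5 FPKM in Naive replicates 1 to 5 and at 3.15, 9.69, 12.4, 7.62 and 5.94 FPKM in Resist replicates 1 to 5. All Resist libraries were below all Naive libraries, although the nearest, at 12.4 and 15.0, were close. The mean was 26.2 ± 11.8 FPKM (SD, n = 5) in Naive and 7.75 ± 3.52 (SD, n = 5) in Resist, 3.38-fold lower, with a log2 change of -1.63 that ran from -1.81 to -1.39 over the other settings. Within single libraries, the ratio of Apcdd1 to Fzd4 FPKM was 8.17 to 24.2 in Naive and 0.643 to 2.04 in Resist. Both genes were chosen for their opposite changes between these libraries, so a split of this ratio follows from the choice.

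Lrp6, the coreceptor that relays canonical Wnt signals, was at 9.45, 11.5, 9.80, 9.94 and 8.93 FPKM in Naive replicates 1 to 5 and at 8.24, 12.3, 11.6, 11.9 and 11.2 FPKM in Resist replicates 1 to 5. The groups overlapped: Resist replicate 1 was below all Naive libraries, and Resist replicate 5 was below Naive replicate 2. Its log2 change of 0.13 (SE 0.10, 95% interval -0.09 to 0.36) did not pass the test (limma adjusted p = 0.393).

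Znrf3, a ubiquitin ligase that takes Frizzled off the surface, was at 1.38, 1.79, 1.88, 1.70 and 1.46 FPKM in Naive replicates 1 to 5 and at 2.05, 2.37, 1.82, 1.68 and 2.13 FPKM in Resist replicates 1 to 5. Resist libraries were on the higher side but overlapped with Naive. The log2 change was 0.19 (SE 0.11, 95% interval -0.04 to 0.42, limma adjusted p = 0.232). For Lrp6 and Znrf3, 0 of 2 were called by limma, and 0 of 2 had an unadjusted p under 0.05 (0.228 and 0.102). Both intervals lie within the fold threshold of 1.5 on the log2(FPKM + 1) scale. That scale understates the change of low genes such as Znrf3, so a 1.5-fold rise of its FPKM is not excluded.

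Rnf43, the partner ligase of Znrf3, was at 0.18, 0.14, 0.10, 0.21 and 0.21 FPKM in Naive replicates 1 to 5 and at 0.74, 0.12, 0.29, 0.50 and 0.38 FPKM in Resist replicates 1 to 5. Of the Resist libraries, 4 were above all Naive libraries and 1 was within their range. In a fit without a filter on low values its log2 change was 0.25 (SE 0.10), with an unadjusted p of 0.0281 in limma and an adjusted p of 0.138, so it was not called.

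Axin2 was listed at 0 in all 10 Naive and Resist libraries. Lgr5 was at 0.02 FPKM in Naive replicate 5 and listed at 0 in the other 9 libraries, and Nkd1 was at 0.02 FPKM in Naive replicate 3, at 0.04 in Resist replicate 4 and listed at 0 elsewhere. Lef1 reached 0.04 FPKM in Naive and 0.12 in Resist, and Tcf7 likewise 0.04 and 0.12, with 2 and 3 of the Naive libraries listed at 0. Of the members under the filter, 5 could be fitted without it and 0 of those 5 were called by limma, with 1, Rnf43, at an unadjusted p under 0.05. At these levels no difference was detectable, and a decrease of Axin2 from 0 could not have been seen.

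**Figure D1:**
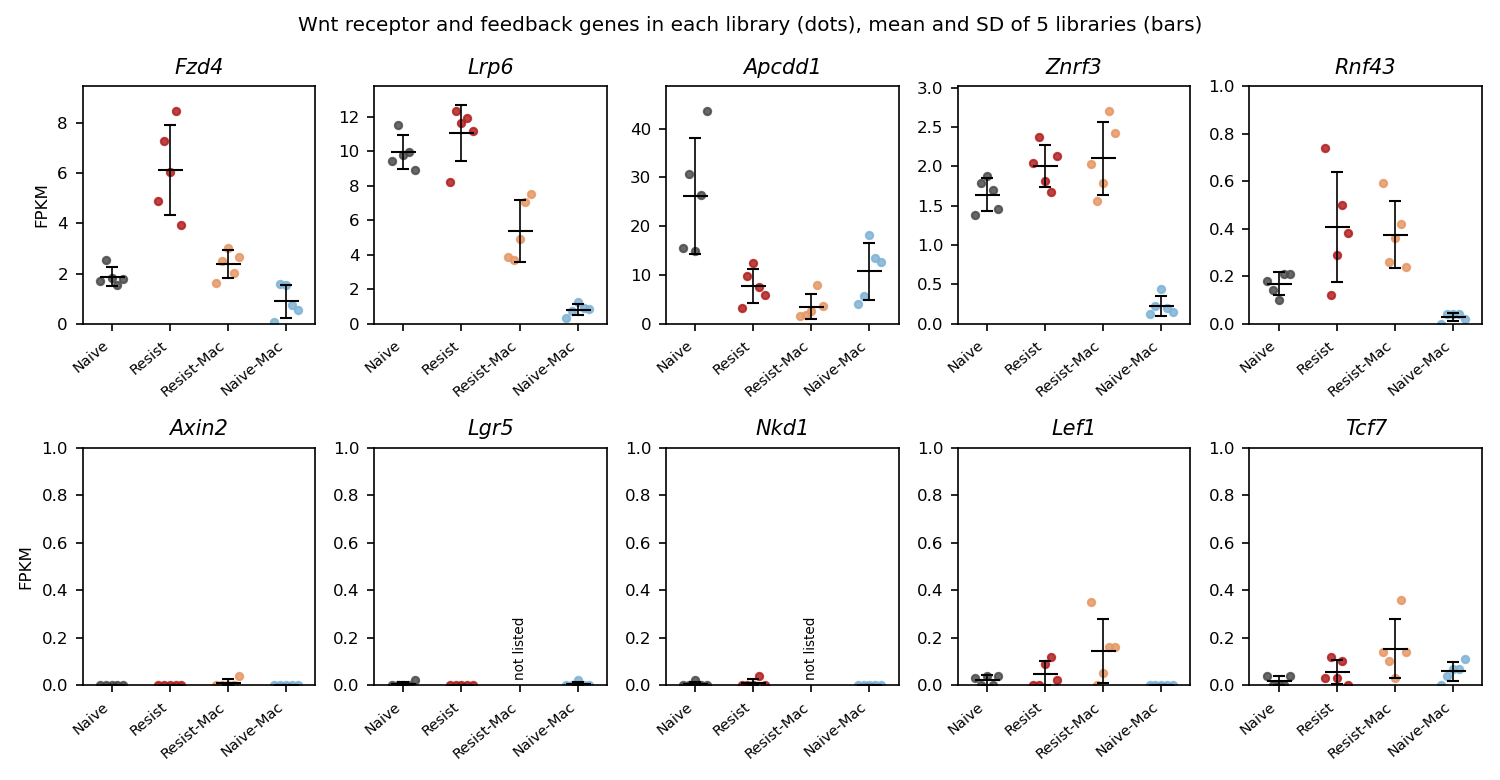
FPKM of the 10 genes in each library (dots), by group on the horizontal axis, with the mean and SD of 5 libraries (horizontal line and bars, the lower bar stopping at 0), each panel with its own linear axis from 0. Fzd4 stands at 3.94 to 8.47 FPKM in Resist, above every other group, Apcdd1 at 15.0 to 43.5 in Naive, above every Resist and Resist-Mac library, and Axin2, Lgr5 and Nkd1 lie at or near 0 in every group where they are listed.

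The order of the levels per transcript length differed between the groups. Resist-Mac and Naive-Mac come from other batches, and differences across batches followed transcript length, so their order and their batch cannot be told apart. In Naive tumors Apcdd1 was highest at 26.2 FPKM, followed by Lrp6 at 9.93, Fzd4 at 1.88 and Znrf3 at 1.64, where the libraries of Fzd4 and Znrf3 overlapped. In Resist tumors Lrp6 was highest at 11.0 FPKM, followed by Apcdd1 at 7.75 and Fzd4 at 6.13, each overlapping its neighbour in this order, and by Znrf3 at 2.01, below every library of Fzd4. In Resist-Mac tumors the order was Lrp6 at 5.40, Apcdd1 at 3.49, Fzd4 at 2.36 and Znrf3 at 2.10, again with overlap between neighbours. In Naive-Mac tumors Apcdd1 stood at 10.8 FPKM, above Fzd4 at 0.894, Lrp6 at 0.816 and Znrf3 at 0.228, and the last 3 overlapped in turn.

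The surrounding pathway was described with 8 lists of 133 genes in all, 123 of them besides the 10 members. Of these 123, the table of Naive and Resist tumors listed 103 and 50 were tested. Of the 50, 10 rose and 0 fell in Resist, against 5.25% and 1.11% of all 10119 genes. The median log2 change of the 50 was 0.17, against 0.03 over all genes tested, and 43 were above 0. Longer transcripts tended slightly toward the higher log2 change (Spearman's rho 0.155, over genes that are not independent). The genes that rose were ligands and their processing enzyme (Wnt4, Wnt5a and Porcn), receptors (Ptk7, Lrp5 and Fzd2), Kremen1, the nuclear factor Tcf7l1 and the target list genes Cd44 and Slc12a2. With quantile normalization the calls of Fzd2, Kremen1 and Cd44 were lost (log2 changes of 0.52 to 0.56), and that of Slc12a2 was lost with median-ratio scaling (0.57) and in a joint fit of all groups (adjusted p = 0.0897). The balance of calls over all genes depended on scaling, with 531 higher and 112 lower as deposited and 381 higher and 167 lower with quantile normalization.

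Among ligands and secretion genes, 4 of 22 were tested and 3 rose. Wnt4 ran from 9.26 to 38.2 FPKM in Naive and from 42.5 to 89.1 in Resist, without overlap (log2 change 1.16, SE 0.32, limma adjusted p = 0.0259). Its call was lost without Naive replicate 3 (adjusted p = 0.0515), Resist replicate 1 (0.0564) or Resist replicate 3 (0.0608), and with no filter on low values (0.0633). Wnt5a, a ligand known mostly for noncanonical signaling, ran from 8.72 to 12.9 FPKM in Naive and from 17.0 to 22.4 in Resist, again without overlap (log2 change 0.80, SE 0.12, limma adjusted p = 0.000955). Porcn, the enzyme that attaches the lipid every Wnt needs for secretion, averaged 7.85 ± 1.46 FPKM (SD, n = 5) in Naive and 15.2 ± 5.51 (SD, n = 5) in Resist (log2 change 0.82, limma adjusted p = 0.0191), and its call was lost without Naive replicate 1 (adjusted p = 0.0508). The remaining tested ligand, Wnt7b, averaged 23.5 FPKM in Naive and 24.4 in Resist (log2 change 0.02, limma adjusted p = 0.966).

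Among the 15 receptors and coreceptors besides Fzd4 and Lrp6, 7 were tested, 3 rose and 0 fell, and the median log2 change was 0.30. Ptk7, a coreceptor tied to planar cell polarity, was at 1.06, 1.68, 1.61, 1.25 and 1.23 FPKM in Naive replicates 1 to 5 and at 7.11, 5.11, 8.08, 3.59 and 5.11 in Resist replicates 1 to 5. No libraries overlapped, and the log2 change of 1.49 (SE 0.17, limma adjusted p = 0.000247) was above that of Fzd4. Lrp5, the other LDL-related coreceptor, averaged 42.8 ± 9.47 FPKM (SD, n = 5) in Naive and 84.4 ± 14.2 (SD, n = 5) in Resist, without overlap (log2 change 0.97, SE 0.15, limma adjusted p = 0.00132). Lrp5 thus stood above Lrp6 in both groups, and it rose while Lrp6 did not pass the test. Fzd2 averaged 1.61 FPKM in Naive and 3.25 in Resist, with overlap between 2.15 and 2.16 (log2 change 0.70, limma adjusted p = 0.00802). The log2 changes of Fzd5 (0.26), Fzd6 (0.29), Ryk (0.07) and Ror1 (0.30) did not pass the test.

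In the R-spondin module, 2 of 9 genes were tested, Znrf3 and Lgr4, and 0 were called. Lgr4, the R-spondin receptor with a measurable level here, averaged 15.6 FPKM in Naive and 15.1 in Resist (log2 change -0.05, limma adjusted p = 0.712), while its relative Lgr6 averaged 0.01 and 0.114 FPKM. Among inhibitors outside the cell, 3 of 18 were tested. Kremen1, which with Dkk proteins removes Lrp6 from the surface, averaged 4.80 FPKM in Naive and 8.24 in Resist (log2 change 0.65, limma adjusted p = 0.00815), and its call was lost without Resist replicate 1, at a log2 change of 0.57, and after the length and GC correction, at 0.58. Wif1, which binds Wnt ligands, had a log2 change of 0.44 (limma adjusted p = 0.302).

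Of the genes of signal transduction in the cytoplasm, 16 of 24 were tested and 0 were called by limma at the fold threshold, although 3 had an adjusted p under 0.05 with smaller changes. These were the Dishevelled genes Dvl1 (log2 change 0.50, adjusted p = 0.0476) and Dvl3 (0.36, adjusted p = 0.00891) and the scaffold gene Axin1 (0.19, adjusted p = 0.0445). Ctnnb1, which encodes beta-catenin, averaged 131 ± 8.60 FPKM (SD, n = 5) in Naive and 135 ± 7.41 (SD, n = 5) in Resist (log2 change 0.05, adjusted p = 0.626). Of the nuclear factors, 11 of 16 were tested and 1 rose. That gene was Tcf7l1, a TCF known mainly as a repressor, at 18.2 FPKM in Naive and 28.3 in Resist (log2 change 0.59, SE 0.15, limma adjusted p = 0.0190). Its change lay at the fold threshold and was under it with median-ratio scaling, quantile normalization and the length and GC correction (0.53 to 0.57). The call was also lost without Naive replicate 1 or 3 or Resist replicate 3 or 4, at log2 changes of 0.47 to 0.58. Tcf7l2 averaged 2.01 FPKM in Naive and 2.35 in Resist (adjusted p = 0.325), so that of the 4 TCF/LEF genes only Tcf7l1 and Tcf7l2 reached a mean of 1 FPKM.

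Of the 28 feedback and target genes, 23 were listed for Naive and Resist tumors, and 15 of them had a mean under 0.1 FPKM in Naive and 14 in Resist. The 7 tested were Apcdd1, Znrf3, Ccnd1, Cd44, Sox9, Wif1 and Slc12a2. Cd44, an adhesion receptor with many inputs besides Wnt, averaged 7.80 FPKM in Naive and 12.9 in Resist, without overlap (log2 change 0.65, SE 0.10, limma adjusted p = 0.00134). Slc12a2, an ion cotransporter, averaged 30.4 and 49.2 FPKM without overlap (log2 change 0.63, limma adjusted p = 0.0166), and without Resist replicate 3 its log2 change of 0.50 was under the threshold. Ccnd1, which encodes cyclin D1, averaged 61.7 FPKM in Naive and 80.0 in Resist, a log2 change of 0.37 (limma adjusted p = 0.0201) that was under the fold threshold. The list was written with results of these libraries known, and most of its tested genes answer to other pathways too. Planar cell polarity genes gave 1 call among 9 tested, Ptk7 again, beside Vangl1 at a log2 change of 0.56 (limma adjusted p = 0.0219), under the fold threshold.

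**Figure D2:**
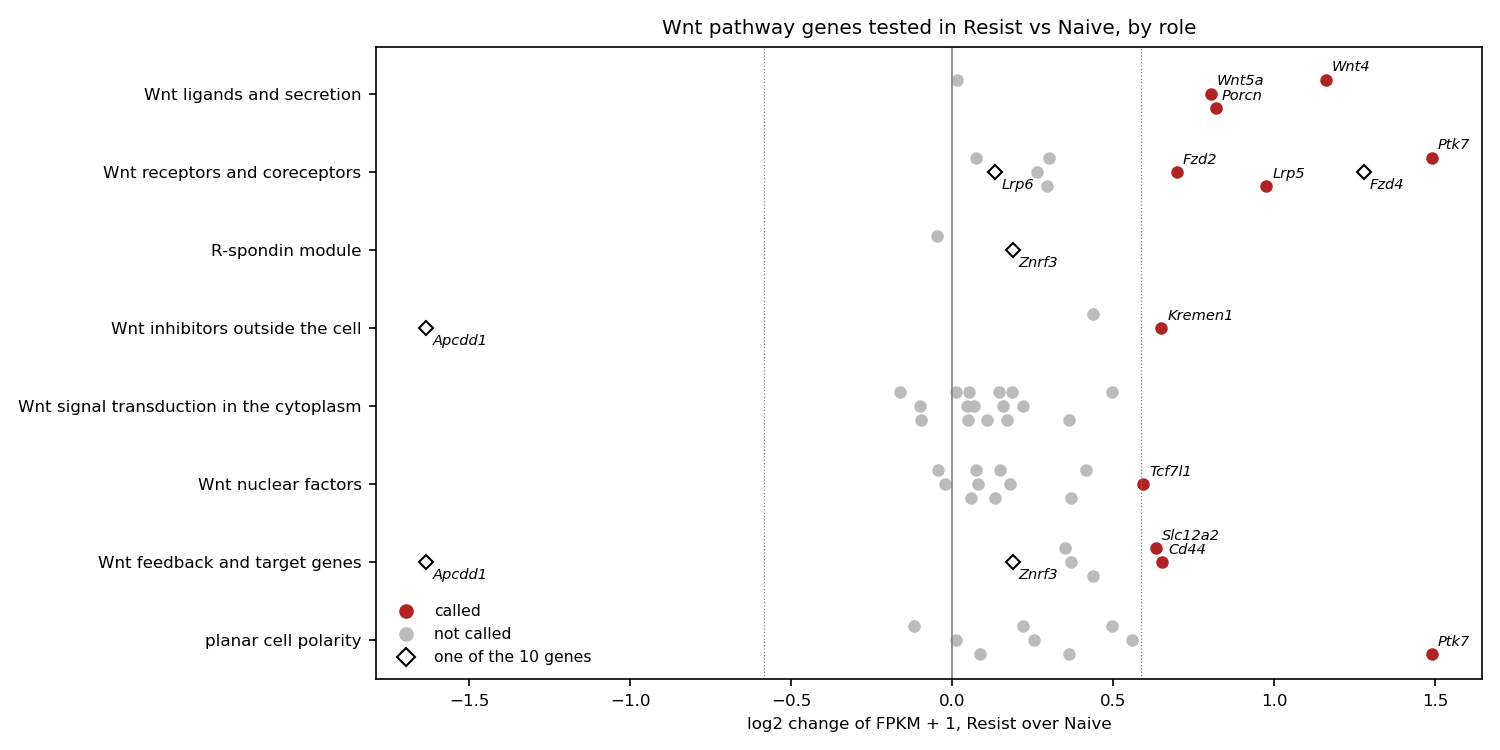
Log2 change of FPKM + 1 between Resist and Naive (horizontal axis, positive when higher in Resist) for each Wnt pathway gene tested, in 1 row per list; red dots were called, grey dots were not, diamonds are members of the 10 genes and the dotted lines mark a fold change of 1.5. Apcdd1 at -1.63 is the only point left of the lower dotted line, and the genes right of the upper one include Ptk7 (1.49), Fzd4 (1.28) and Wnt4 (1.16).

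**Figure D3:**
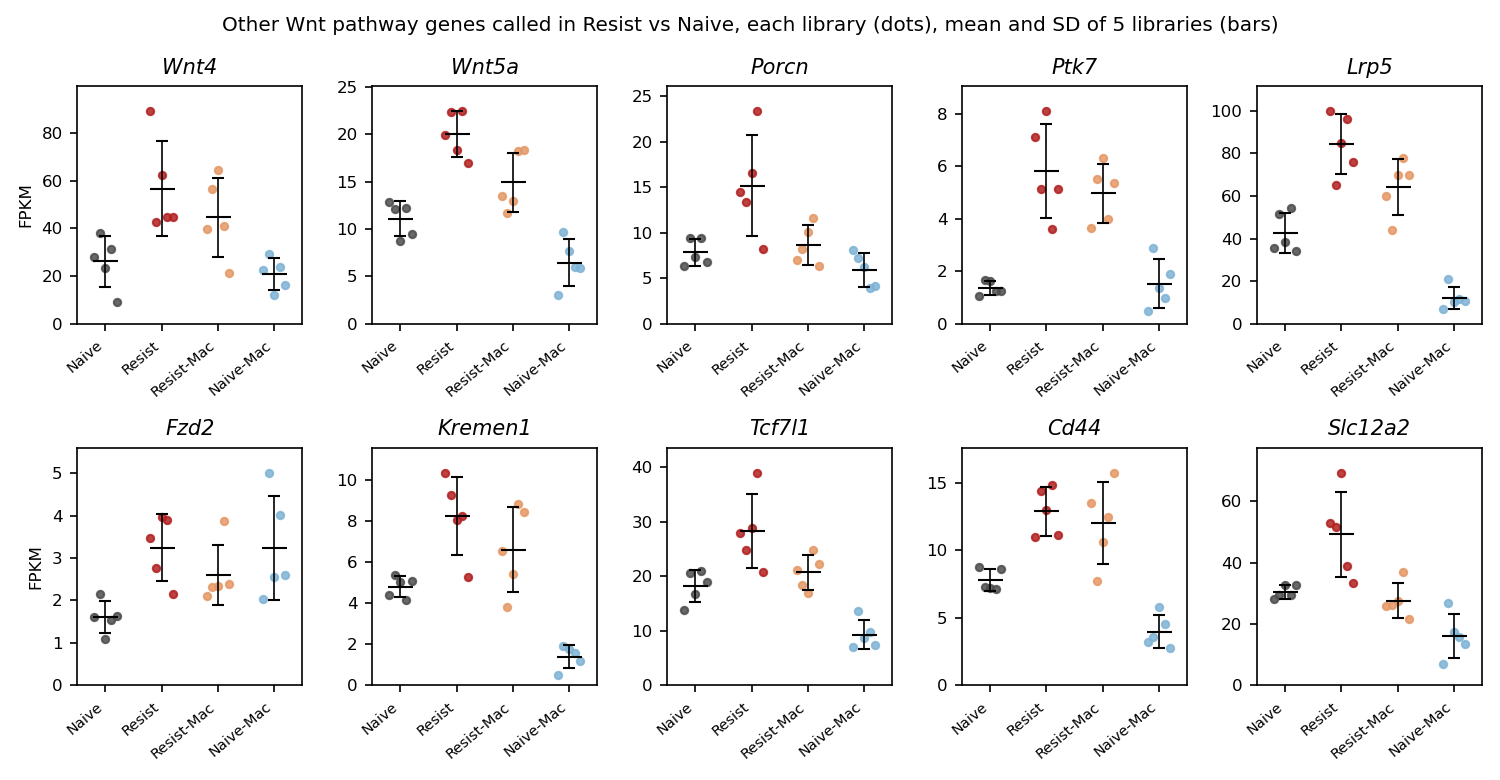
FPKM of the 10 other Wnt pathway genes called in Resist vs. Naive in each library (dots), by group, with mean and SD of 5 libraries (line and bars), on linear axes from 0. Ptk7 runs from 1.06 to 1.68 in Naive and from 3.59 to 8.08 in Resist, and in Naive-Mac, which is another batch, Lrp5, Kremen1 and Cd44 lie below all other groups.

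The genes whose levels followed those of Fzd4 and Apcdd1 most closely over the 10 Naive and Resist libraries were ranked by Pearson's r of log2(FPKM + 1) among 10119 genes. Those nearest to Fzd4 were Cyld (0.982), Wwp1 (0.972) and Syt16 (0.971), and those nearest to Apcdd1 were Sik3 (0.970), Coa7 (0.934) and Stard13 (0.927). Between Fzd4 and Apcdd1 r was -0.669. These values describe libraries that share the difference between the groups, and they carry no test.

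Resist vs. Resist-Mac asks which levels differed when macrophages were depleted from resistant tumors, with the limit that the groups come from different batches and tables and that each library was scaled on its own. Of all 10049 genes tested, 9.71% were called higher in Resist and 12% lower, and the groups did not overlap for 29.7%. Longer transcripts tended to have the higher log2 change (Spearman's rho 0.642, over genes that are not independent). Fzd4 was at 1.61, 2.51, 3.04, 2.01 and 2.65 FPKM in Resist-Mac replicates 1 to 5, below all Resist libraries and overlapping with Naive. Its mean of 2.36 ± 0.560 FPKM (SD, n = 5) was 2.59-fold lower than in Resist, a log2 change of 1.06 that was known when the gene was chosen and is given with no test. It was 0.61 once the libraries were corrected for the length and GC content of transcripts.

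Lrp6 was at 3.85, 3.67, 4.90, 7.05 and 7.53 FPKM in Resist-Mac replicates 1 to 5, and every library was below all of Resist. The log2 change was 0.95 (SE 0.18, limma adjusted p = 0.00147), and after the length and GC correction it was 0.33 (limma adjusted p = 0.114) and no longer called. In the libraries that share a tag it was at 3.67 and 4.90 FPKM against 7.05 and 7.53. Apcdd1 was at 1.56, 1.82, 2.67, 7.85 and 3.57 FPKM in Resist-Mac replicates 1 to 5, with replicates 4 and 5 inside the range of Resist. Its log2 change was 1.01, and 0.30 after the length and GC correction, given with no test since the Resist libraries chose the gene. Znrf3, at 1.56 to 2.70 FPKM in Resist-Mac, overlapped with Resist (log2 change -0.04, 95% interval -0.34 to 0.27, limma adjusted p = 0.860), and after the correction it was at -0.50 (limma adjusted p = 0.0109), under the fold threshold.

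The low members were again low in Resist-Mac. Rnf43 was at 0.24 to 0.59 FPKM, overlapping with Resist. Lef1 was at 0.35, 0, 0.05, 0.16 and 0.16 FPKM and Tcf7 at 0.14, 0.10, 0.03, 0.36 and 0.14 FPKM in replicates 1 to 5, the highest values of these genes in the series, yet overlapping with Resist. Axin2 was at 0.04 FPKM in replicate 5 and listed at 0 in the others. Lgr5 and Nkd1 are not listed for Resist-Mac. Without a filter, 0 of the 4 low members that could be fitted were called by limma, and 0 had an unadjusted p under 0.05. Of the 50 other Wnt pathway genes tested, 9 were higher in Resist and 0 lower, against 9.71% and 12% of all genes. Among the 9 were Porcn (log2 change 0.71, limma adjusted p = 0.0262) and Slc12a2 (0.79, limma adjusted p = 0.00500). Both had also risen in Resist vs. Naive, a comparison that shares the Resist libraries. The call of Porcn was lost without Resist replicate 3 or 4 or Resist-Mac replicate 1 or 5 (adjusted p from 0.0590 to 0.0621) and with no filter (0.0504). The log2 change of Ptk7 was 0.17 (adjusted p = 0.503), that of Wnt4 was 0.37 (adjusted p = 0.305) and that of Wnt5a was 0.41 (adjusted p = 0.0275), the last under the fold threshold.

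Resist-Mac vs. Naive-Mac compares resistant with naive tumors when macrophages were depleted from both, with batch 2 against batch 3. Apcdd1 was chosen for its fall in Resist vs. Naive, and the Resist-Mac values of Fzd4 were known when Fzd4 was chosen. Earlier results of these data were known at the choice, so the test of Apcdd1 here is not independent of it. All 3 members tested were called: Apcdd1 was lower, and Lrp6 and Znrf3 were higher in Resist-Mac. The background is 37.2% of 9760 genes higher and 9.0% lower, with no overlap for 47.8% and a median log2 change of 0.34. The higher calls are therefore close to what a large share of all genes did. Scaling moved this background: with median-ratio scaling the median was -0.04, with 2187 genes called higher and 2291 lower.

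Apcdd1 was at 4.02, 5.67, 18.1, 13.5 and 12.6 FPKM in Naive-Mac replicates 1 to 5, against 1.56 to 7.85 in Resist-Mac. The groups overlapped, with Resist-Mac replicate 4 above Naive-Mac replicates 1 and 2. It was 3.09-fold lower in Resist-Mac by the means, with a log2 change of -1.38 (SE 0.39, 95% interval -2.23 to -0.52, limma adjusted p = 0.00811). It was called under all 20 other settings, at log2 changes of -2.36 to -1.16, with the length and GC correction giving -2.36 and median-ratio scaling -1.75.

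Fzd4 was at 0.07, 1.58, 1.55, 0.74 and 0.53 FPKM in Naive-Mac replicates 1 to 5, all below the Resist-Mac libraries, though 1.58 and 1.61 are nearly the same. Its log2 change, given with no test, was 0.89, but 0.21 with quantile normalization and 0.24 after the length and GC correction. The ratio of Apcdd1 to Fzd4 within a library, which needs no scaling between libraries, was 3.59 to 57.4 with a median of 18.2 in Naive-Mac and 0.725 to 3.91 with a median of 0.969 in Resist-Mac. The ratio of 57.4 comes from replicate 1, where Fzd4 was at only 0.07 FPKM, and such ratios still carry any effect of transcript length. The Resist-Mac values of Fzd4 were known at the choice, so this ratio is not independent of it.

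Lrp6 was at 0.31, 0.76, 1.24, 0.92 and 0.85 FPKM in Naive-Mac replicates 1 to 5, under all libraries of the other groups, with a log2 change of 1.79 in Resist-Mac vs. Naive-Mac (SE 0.21, limma adjusted p = 1.09e-05). Znrf3 was at 0.12, 0.23, 0.44, 0.20 and 0.15 FPKM in Naive-Mac, also under all other groups (log2 change 1.33, SE 0.15, limma adjusted p = 9.32e-06). After the length and GC correction these changes were 0.96 and 0.61, still called. Rnf43 was at 0, 0.04, 0.04, 0.04 and 0.02 FPKM in Naive-Mac, below all Resist-Mac libraries. In the fit without a filter its log2 change was 0.41 (limma adjusted p = 0.000362), under the fold threshold on the log2(FPKM + 1) scale, which understates the change of low genes. Lef1 and Axin2 were listed at 0 in every Naive-Mac library. In the same fit Lef1 had a log2 change of 0.19 (limma adjusted p = 0.0457), under the fold threshold, and Tcf7 and Axin2 had adjusted p of 0.170 and 0.723. Among the pathway genes that rose in Resist vs. Naive, Ptk7 (log2 change 1.30), Wnt4 (1.04), Wnt5a (1.15), Lrp5 (2.38), Kremen1 (1.67), Tcf7l1 (1.10), Cd44 (1.38) and Slc12a2 (0.84) were called higher in Resist-Mac than in Naive-Mac, while Porcn (0.50, limma adjusted p = 0.0567) and Fzd2 (-0.21, adjusted p = 0.391) were not. Porcn was called without Resist-Mac replicate 5 or Naive-Mac replicate 1 (log2 changes of 0.59 and 0.61). Of the 51 other pathway genes tested 37 were called higher and 0 lower, a larger share than the 37.2% of all genes. Their median log2 change was 0.91, against 0.34 over all genes. Longer transcripts tended to have the higher log2 change here too (Spearman's rho 0.607), and batch and condition cannot be told apart.

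The difference between both effects, Resist-Mac over Naive-Mac less Resist over Naive, was tested in 1 fit for the members that had no part in the choice. It was 1.66 for Lrp6 (SE 0.24, limma adjusted p = 7.63e-06) and 1.14 for Znrf3 (SE 0.17, limma adjusted p = 1.53e-05), and it was called for 40.7% of 9876 genes. With correction for length and GC content it was 0.91 for Lrp6 and 0.49 for Znrf3, the latter under the threshold.

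Naive vs. Naive-Mac asks the same of macrophage depletion in naive tumors, across batches 1 and 3. Here 37.5% of 9837 genes were called higher in Naive, the groups did not overlap for 66.0%, and the rho with transcript length was 0.709. The median gene stood at a log2 change of 0.23, and at -0.05 with median-ratio scaling, which called 2881 genes higher and 3063 lower. Lrp6, the only member tested, was called higher in Naive. It differed by 2.61 (limma adjusted p = 3.03e-09, SE 0.14), with all Naive libraries at 8.93 FPKM or more, and it kept the call at 1.20 after the length and GC correction.

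Fzd4 and Apcdd1 are given here with no test, since the Naive libraries chose them. The log2 change of Fzd4 was 0.67, with overlap, since 2 Naive-Mac libraries reached the range of Naive. It was 0.53 with median-ratio scaling, 0.11 with quantile normalization and -0.41 after the length and GC correction. That of Apcdd1 was 1.27, also with overlap, and -0.38 after the same correction. The direction of Fzd4 and Apcdd1 between Naive and Naive-Mac thus depended on the processing. Znrf3, under the filter here, had a log2 change of 1.11 in the fit without one (limma adjusted p = 8.79e-07), without overlap between the groups. Rnf43 did not overlap either (0.10 to 0.21 against 0 to 0.04 FPKM).

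**Figure D4:**
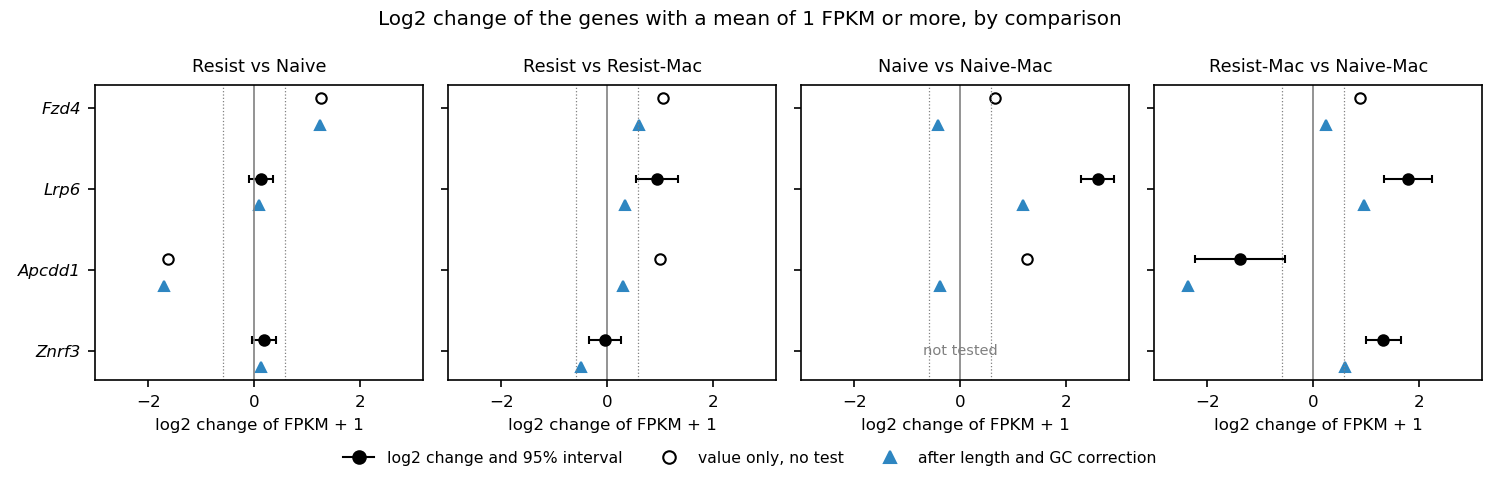
Log2 change of FPKM + 1 (horizontal axis, positive when the first-named group is higher) of the 4 members that reached a mean of 1 FPKM, in 1 panel per comparison, with 95% intervals (black), values with no test (open circles) and values after the length and GC correction (blue triangles); dotted lines mark a fold change of 1.5. Apcdd1 lies left of the lower dotted line in Resist vs. Naive (-1.63) and in Resist-Mac vs. Naive-Mac (-1.38) with and without the correction, while Fzd4 lies right of the upper one in the first (1.28) and falls to 0.24 after the correction in the second.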

How the data were processed

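Tumor cells were sequenced in 20 libraries, 5 in each of 4 groups taken from the labels. The authors deposited gene values in 3 tables. The one for Naive and Resist holds deposited log2 values, log2(FPKM + 1), since undoing that transform gave FPKM with 2 decimals (tolerance 0.001) for 100% of them. Those for the depleted groups hold linear FPKM as deposited. Per the submitters' processing notes, Bowtie2 and mm9 were used; versions, the counting tool and the annotation are not given in the sources used here. Genes that the authors' pipeline had predicted itself were removed. Libraries of separate tables were scaled on their own, so differences across tables carry the batch.

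Genes were named from a RefSeq table, and transcript length and GC content came from a mouse GENCODE annotation. Tests were run in limma 3.58.1 (R 4.3.3) on log2(FPKM + 1) for genes averaging 1 FPKM or more in the groups at hand, with only the groups compared in the fit and a prior variance that follows the mean level. Calls needed a Benjamini-Hochberg adjusted p under 0.05 over all genes tested and a fold change over 1.5. The design followed the study's threshold on the fold change. The procedure was tested on simulated data. Besides all members, the text names, per pathway list, up to 3 genes with the largest called change in each direction in Resist vs. Naive, and the 3 genes nearest to Fzd4 and to Apcdd1. Other genes are named beside them as the tested members of a list and were chosen after their values were seen. The members and lists were chosen with earlier results of these data known. Fzd4 and Apcdd1 were given without a test wherever libraries that entered their choice were compared, a restriction added after the fits were seen.

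Alternatives were a pseudocount of 0.1 FPKM, no filter, a filter at 5 FPKM, median-ratio scaling, quantile normalization, no trend, a replicate block, a joint fit of the 4 groups, a correction of each library for transcript length and GC content (spline with 4 degrees of freedom), a fold change over 2, and leaving out each library. Tables were handled in pandas 2.3.3 (Python 3.11.15, numpy 2.4.6).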

Additional observations from a re-analysis of the deposited data

Results flagged for a closer look

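Single libraries stood far from the other 4 of their group by Dixon's test in 7 of the 32 group and gene combinations tested. The rate of about 1 in 20 that chance gives does not hold for genes mostly listed at 0, so the count is not set against it. Fzd4 was at 2.53 FPKM in Naive replicate 2, the others being at 1.55 to 1.83, and even this library was below all Resist libraries. Lrp6 was at 8.24 FPKM in Resist replicate 1, the others being at 11.2 to 12.3. The remaining 5 cases were genes listed at 0 in every library of the group but 1, where the flag follows from the zeros. These were Axin2 at 0.04 FPKM in Resist-Mac, Lgr5 at 0.02 in Naive and at 0.02 in Naive-Mac, and Nkd1 at 0.02 in Naive and at 0.04 in Resist.

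The resistance effect with macrophages depleted exceeded the effect with macrophages present by a log2 difference of 1.66 for Lrp6 and 1.14 for Znrf3, as tested in the limma fit of all groups. The same fit called 40.7% of all genes, and the depleted groups come from different batches.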

How the results depend on the processing

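In Resist vs. Naive, 643 genes were called, against 392 with the filter at 5 FPKM, 219 at a fold change over 2 and 527 to 840 when 1 library was left out. The members called numbered 0 under every alternative run. Such counts of members leave out Fzd4 and Apcdd1 wherever these were given with no test, as in this comparison. In Resist vs. Resist-Mac, 2181 genes became 898 after the length and GC correction, a step that also turned Wnt5a (-0.058), Lrp5 (-0.28), Ptk7 (-0.051), Kremen1 (-0.017) and Cd44 (-0.18), and 481 at a fold change over 2. Of the members 1 was called there, Lrp6, and 0 with that correction and 0 at a fold change over 2. In the same comparison the log2 change of Znrf3 ran from -0.10 to 0.032 and that of Cd44 from -0.017 to 0.22 when 1 library was left out.

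In Naive vs. Naive-Mac, 5868 genes became 3659 at a fold change over 2, and the 1 member called became 2 with no filter and 1 to 2 when 1 library was left out, since Znrf3 then entered the test. The length and GC correction turned Fzd4 (-0.41), Apcdd1 (-0.38), Wnt5a (-0.36) and Wnt4 (-0.40). Porcn was at -0.21 with quantile normalization, Wnt4 at -0.062 with median-ratio scaling and Ptk7 at 0.044 with a pseudocount of 0.1 FPKM, Ptk7 running from -0.19 to 0.16 when 1 library was left out. In Resist-Mac vs. Naive-Mac, 4509 genes became 2335 at a fold change over 2, the 3 members called became 1 with the filter at 5 FPKM, where fewer genes were tested, and Porcn was at -0.13 with quantile normalization. The difference between the effects was called for 4015 genes, and for 1929 at a difference over 2-fold; of its 2 members called, 1 was left with the filter at 5 FPKM and 1 after the length and GC correction. Where no construction of the alternative shows it, the cause was not tested.

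Equal replicate numbers were not taken to pair the samples, since in no comparison did every equal-numbered pair deviate together: the correlations of deviations were -0.160 to -0.028 for Resist and Naive, -0.269 to 0.356 for Resist and Resist-Mac, -0.161 to 0.226 for Naive and Naive-Mac, and -0.376 to 0.323 for Resist-Mac and Naive-Mac. With a replicate block, the calls over all genes numbered 624 for Resist against Naive, 2228 against Resist-Mac, 5888 for Naive against Naive-Mac, 4534 between the depleted groups and 4046 for the difference of effects, and no member's call changed. Depth is unknown and limits what can be said of genes listed at 0.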
